A study of Mus musculus with 21 samples.

Results

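The expression of 34 genes of the p53 pathway was examined in mouse mammary tumors, gene by gene and tumor by tumor. They are Trp53 itself, its partners Mdm2 and Mdm4, and 31 genes listed as targets of p53. Whether each is a target in these mouse tumors was not tested. They were taken by symbol from a written list and not by their values. The list was chosen with earlier results of these data known. All 34 were among the 38730 genes with a read in any tumor, and all 34 passed the filter on low counts that left 19315 genes for testing. Bulk RNA was sequenced from 21 tumors. Each carried FloxNeoNeuNT, an activated Neu cDNA placed in the mouse ErbB2 locus behind a loxP-flanked stop, and MMTV-CreNLST, a Cre under the mouse mammary tumor virus promoter that removes the stop in mammary epithelium. The 12 RhoC tumors, from 8 mice, also carried R26(RhoC/+), in which Cre switches on a wildtype RhoC cDNA in the Rosa26 locus. The 9 control tumors came from 9 mice without this allele, and 7 of them were Gata4(loxP/+), so that the Cre could also delete 1 copy of Gata4. Of the RhoC tumors, 4 came from mouse P497 (R-13 to R-16) and 2 from mouse N9255 (R-6 and R-7). The mouse of R-18 is not named in the labels, and R-21 is labelled with a mouse that the study's tumor list gives to another RhoC tumor. The labels give no age and no sequencing batch. The study reports that tumors arose much earlier in RhoC mice than in control mice. Age may therefore differ between the cohorts, and its part was not tested.

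p53 is a transcription factor that is kept scarce by the ubiquitin ligase Mdm2 and its relative Mdm4, and that accumulates when DNA is damaged, when oncogenes are active or when ribosome production fails. It then binds its targets as a tetramer and raises genes that stop the cell cycle, repair DNA, limit growth signaling or start cell death. One of these targets is Mdm2, which closes a feedback loop. Because p53 is controlled largely at the level of the protein, the RNA of its targets is a common readout of its activity, although most of these genes also answer to other transcription factors.

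A p53 binding site is made of a pair of 10-base half-sites. RefSeq promoter windows on GRCm38.p6, which run from 250 bases before a gene's start to 50 bases after it, were found for 26 of the 34 genes. The p53 half-site consensus, which reads the same on both strands, was found in 12 of 37 windows of these genes (32.4%) and in 2745 of 32851 windows of all genes (8.36%). By gene it was found for 11 of the 26 genes, against 9.55% of 27025 genes. The genes entered the list as p53 targets, so a larger share of matches is no independent evidence, and a match is a description and not a binding site. The stretches are shown for the genes described in detail below that hold a half-site ahead of the start and outside annotated exons, with the half-site in capitals.
Trp53, 75 bases before the start, chr11:69580269-69580308, plus strand: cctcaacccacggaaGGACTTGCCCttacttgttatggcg
Mdm2, 186 bases before the start, chr10:117710920-117710959, minus strand: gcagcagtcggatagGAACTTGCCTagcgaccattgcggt
Cdkn1a, 73 bases before the start, chr17:29090891-29090930, plus strand: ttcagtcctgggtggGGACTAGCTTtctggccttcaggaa
Cdkn1a, 51 bases before the start, chr17:29090913-29090952, plus strand: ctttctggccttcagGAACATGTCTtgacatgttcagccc
Ccng1, 185 bases before the start, chr11:40755447-40755486, minus strand: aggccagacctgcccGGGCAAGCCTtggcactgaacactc
Bax, 201 bases before the start, chr7:45467075-45467114, minus strand: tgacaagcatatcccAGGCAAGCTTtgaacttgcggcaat
Polk, 231 bases before a start inside the gene, in an intron of its longest transcript, chr13:96519394-96519433, minus strand: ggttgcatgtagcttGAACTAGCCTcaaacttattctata
In Cdkn1a the 10 bases right after the second half-site matched 9 of the 10 consensus letters, and in Ccng1 the same held for the 10 bases right before it, so these windows come close to a full site of a pair of half-sites. In the others the better of the neighboring stretches matched between 3 and 7 letters.

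Library depth was 47552423 to 100741339 counted reads in control tumors and 47309780 to 85326903 in RhoC tumors, and no gene of the list described in detail below had fewer than 135 reads in any tumor. Levels are given as CPM, counts scaled to library size. Rhoc, whose count includes the transgene, averaged 88.8 ± 33.5 CPM (SD, n = 12) where the allele was present against 77.7 ± 53.7 CPM (SD, n = 9) in controls (edgeR adjusted p = 0.774), so its RNA gave no check of the labels. Markers of luminal mammary epithelium summed to between 1211 and 6256 CPM over all tumors, with none of the 9 markers at 0 in any tumor. The study's tumor list gives R-13, R-14 and R-6 as squamous cell carcinomas and N-1 as a spindle cell tumor, and the control N-17 stood apart with 4104 CPM of skeletal muscle markers. In bulk RNA, fewer cells of a type and less RNA per cell cannot be told apart.

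Targets of p53 tended to higher means in RhoC tumors, with 29 of the 34 genes (85.3%) above the controls, against 49.6% of all 19315 genes tested. The median log2 fold change of the 34 was 0.48, against -0.01 over all genes. In edgeR's quasi-likelihood test with Benjamini-Hochberg adjustment over all genes, 0 of the 34 had an adjusted p under 0.05, a threshold that 0.223% of all genes passed. At an unadjusted p under 0.05 there were 14 of the 34 (41.2%), all higher in RhoC tumors, where 10.5% of all genes were higher at this threshold and 9.93% lower. DESeq2's Wald test on the same genes had 4 of the 34 (11.8%) at an adjusted p under 0.05, against 6.24% of all genes, and they were Zmat3, Cdkn1a, Sfn and Ccng1. With the 7 Gata4(loxP/+) controls alone edgeR had 2 of the 34, Zmat3 and Cdkn1a, against 2.22% of all genes. Every control and no RhoC tumor carried the Gata4 allele in that fit, so the alleles cannot be told apart there. Leaving out N-15 alone, a control without this allele, gave the same 2 genes, against 1.77% of all genes. With counts summed per mouse, and with voom and mouse as a random effect, 0 of the 34 had an adjusted p under 0.05, against 0.0155% of all genes in each. No gene of the list separated the cohorts without overlap, which 3 of all genes tested did. For 5 of the 34, 11 or 12 of the 12 RhoC tumors lay above the control median, against 8.56% of all genes tested.

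**Figure D1:**
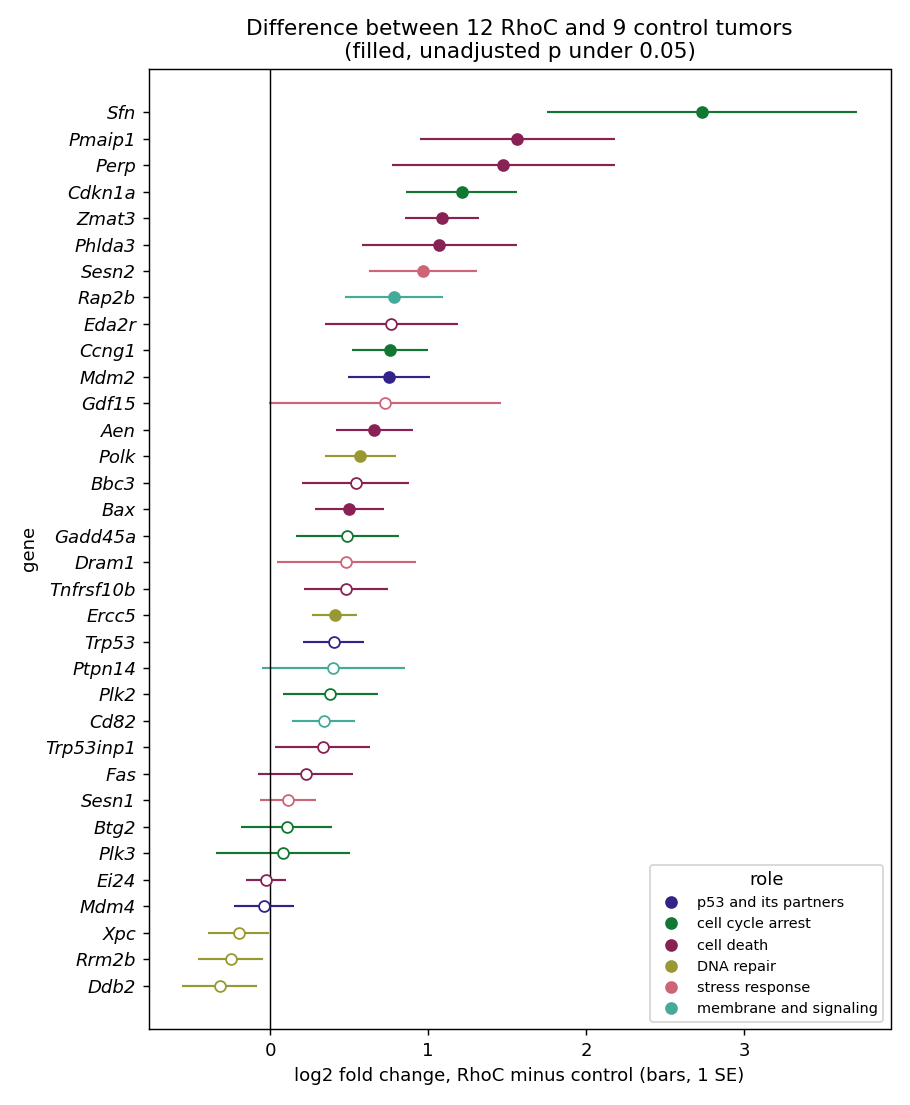
Log2 fold change of the 34 genes between 12 RhoC and 9 control tumors on the horizontal axis, 1 gene per line in order of size, with bars of 1 SE and colors for the gene's role. Filled points are the 14 genes with an unadjusted p under 0.05, all to the right of 0, and the 5 genes left of 0 are Ei24, Mdm4, Xpc, Rrm2b and Ddb2.

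Fits on single tumors without a term for the mouse treat the tumors of a mouse as independent. With the counts of each mouse summed (9 control and 8 RhoC mice), 7 of the 34 had an unadjusted p under 0.05 and all were higher, against 6.85% of all genes higher at that threshold. Without the 4 tumors of P497 there were 4 of the 34, namely Cdkn1a, Sfn, Zmat3 and Ercc5, against 6.98% of all genes. Without the squamous cell carcinomas there were also 4, namely Cdkn1a, Ccng1, Zmat3 and Ercc5, against 8.06%. Cdkn1a, Zmat3 and Ercc5 were in each of these 3 sets of genes.

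Trp53 (ENSMUSG00000059552.13, chromosome 11 from 69580359 to 69591873 on GRCm38) encodes p53. Its level ran from 27.9 CPM in N-4 through a median of 66.3 to 117 in N-15 among controls. In RhoC tumors the level went from 64.1 CPM in R-1 through a median of 84.1 to 125 in R-10. The RhoC tumors formed a narrow band whose lower edge lay near the control median. The controls extended further down, and none lay above the highest RhoC tumor. Between cohorts the log2 fold change was 0.40 (SE 0.19, unadjusted p = 0.0511, edgeR adjusted p = 0.247), and 11 of 12 RhoC tumors lay above the control median.

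Mdm2 (ENSMUSG00000020184.15, chromosome 10 from 117688875 to 117710758), the ligase that sends p53 for degradation, ranged from 39.1 CPM in N-3 to 84.6 in N-4 among controls, with a median of 64.8. In RhoC tumors it ranged from 51.8 CPM in R-7 to 237 in R-13, with a median of 89.0. Levels above every control were found in 6 of the 12 RhoC tumors (R-2, R-6, R-12, R-13, R-14 and R-15), and the other 6 lay within the range of the controls. This gave a log2 fold change of 0.75 (SE 0.26, unadjusted p = 0.00837, edgeR adjusted p = 0.129). It was 0.47 without P497 and 0.42 without the squamous cell carcinomas, with adjusted p-values of 0.474 and 0.375 from edgeR. Over all alternatives its adjusted p lay between 0.0671 with DESeq2 and 0.848 with the tumor number in the labels as a block. These tumor numbers do not pair the samples.

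Mdm4 (ENSMUSG00000054387.13, chromosome 1 from 132959484 to 133030561), which masks the activating domain of p53, was at 73.1 to 149 CPM in controls with a median of 119. RhoC tumors were at 73.6 to 204 CPM with a median of 103. The cohorts lay over each other, with the highest value of all in R-2 and the 4 tumors of P497 at the low end. Its log2 fold change of -0.04 (SE 0.19, edgeR adjusted p = 0.921) changed sign with the choice of tumors.

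Genes of cell cycle arrest were all 7 at higher means in RhoC tumors, against 49.6% of all genes. Of these 3, Cdkn1a, Ccng1 and Sfn, had an unadjusted p under 0.05, where 10.5% of all genes were higher. The median log2 fold change of the 7 was 0.49. With counts summed per mouse Btg2 and Plk3 were lower, at -0.056 and -0.31.

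Cdkn1a (ENSMUSG00000023067.14, chromosome 17 from 29090976 to 29100727) encodes p21, the inhibitor of cyclin-dependent kinases through which p53 stops the cell cycle. Control tumors held 35.5 CPM in N-3 and 35.9 in N-4 at the low end, a median of 75.6, and 203 in N-6 and 253 in N-15 at the high end. The 12 RhoC tumors extended from 85.4 CPM in R-7 through a median of 255 to 393 in R-12. Each of the 12 RhoC tumors exceeded the control median and 6 lay above every control, while the other 6 lay within the range of the controls, lowest in R-7 and R-21. The log2 fold change was 1.21 (SE 0.35, unadjusted p = 0.00225, edgeR adjusted p = 0.0897). Without N-15, the control with the highest level, the edgeR adjusted p was 0.0366, in a fit that called 1.77% of all genes, and with the 7 Gata4(loxP/+) controls alone the log2 fold change was 1.48 with an edgeR adjusted p of 0.0392. The adjusted p was 0.259 with edgeR on counts summed per mouse and 0.19 with limma and mouse as a random effect. Over all alternatives it lay between 0.0194 with DESeq2 and 0.706 with the tumor number in the labels as a block. Its log2 fold change without the squamous cell carcinomas was 1.14.

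Ccng1 (ENSMUSG00000020326.7, chromosome 11 from 40748552 to 40755311), an atypical cyclin that feeds back on p53 and Mdm2, ran from 115 CPM in N-1 to 315 in N-8 among controls with a median of 252. RhoC tumors ran from 154 CPM in R-21 to 661 in R-13 with a median of 382. The 3 highest tumors, R-13, R-14 and R-15, were all of mouse P497, and 8 of 12 RhoC tumors lay above every control. Between cohorts the log2 fold change was 0.76 (SE 0.24, unadjusted p = 0.00487, edgeR adjusted p = 0.111) and 0.47 without P497. DESeq2's adjusted p for Ccng1 was 0.0422, the lowest of all alternatives, and the highest was 0.706 with the tumor number as a block.

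**Figure D2:**
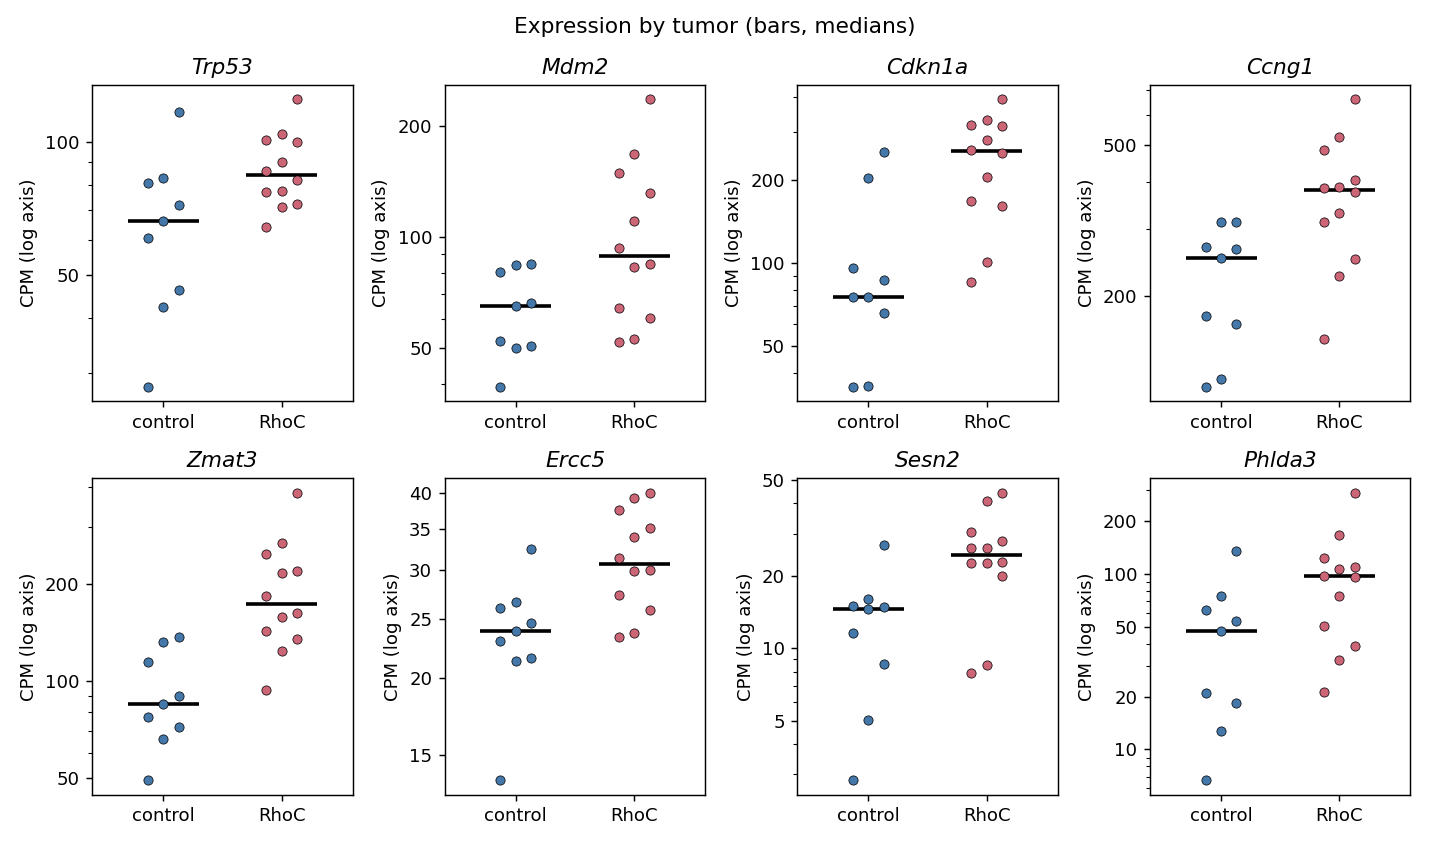
CPM on a log axis in each of 9 control and 12 RhoC tumors for 8 genes of the list, 1 point per tumor, with bars at the medians. For Cdkn1a each of the 12 RhoC tumors lies above the control median of 75.6 CPM, and for each gene the lower RhoC tumors fall among the controls.

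Sfn (ENSMUSG00000047281.3, chromosome 4 from 133600556 to 133602168) encodes stratifin, which holds back entry into mitosis and is abundant in stratified squamous epithelium. It had the largest log2 fold change of the list, 2.73 (SE 0.98, unadjusted p = 0.0107, edgeR adjusted p = 0.139). Controls ran from 4.78 CPM in N-3 to 95.7 in N-1 with a median of 24.8. In RhoC tumors the level went from 7.93 CPM in R-7 to 980 in R-6 with a median of 19.6. The RhoC median lay below that of the controls, and R-6, R-13, R-12 and R-14 stood far above all other tumors, at 980, 968, 297 and 230 CPM. Without the squamous cell carcinomas the log2 fold change was 0.57 with an adjusted p of 0.727 from edgeR. Over all alternatives the adjusted p ran from 0.0211 with DESeq2 to 0.954 with the tumor number as a block.

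The other arrest genes were Btg2, an antiproliferative cofactor, Gadd45a, a stress sensor that binds cell cycle and repair proteins, and the polo-like kinases Plk2 and Plk3. Their log2 fold changes ran from 0.08 for Plk3 to 0.49 for Gadd45a, with adjusted p-values from 0.403 to 0.929 in edgeR. Gadd45a and Plk2 were each highest of the controls in N-3, at 30.4 and 242 CPM, although this control was lowest for many genes of the list.

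Genes of cell death were the largest group, and 11 of its 12 genes had higher means in RhoC tumors, against 49.6% of all genes. The median log2 fold change of the group was 0.60. At an unadjusted p under 0.05, where 10.5% of all genes were higher, there were 6, namely Zmat3, Aen, Pmaip1, Bax, Phlda3 and Perp. Of these only Zmat3 kept such a p with edgeR on counts summed per mouse, without P497 and without the squamous cell carcinomas.

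Zmat3 (ENSMUSG00000027663.12, chromosome 3 from 32334792 to 32365678), an RNA-binding zinc finger protein that acts on splicing and RNA stability, had the smallest p of the list. Controls ran from 49.3 CPM in N-3 through a median of 84.8 to 137 in N-6. The 12 RhoC tumors extended from 94.1 CPM in R-21 through a median of 173 to 383 in R-10. Each of the 12 RhoC tumors exceeded the control median and 9 lay above every control, and 6 controls lay below every RhoC tumor. This gave a log2 fold change of 1.09 (SE 0.23, unadjusted p = 0.000125, edgeR adjusted p = 0.0528). Leaving out N-6, N-15, R-1, R-10, R-12, R-18 or R-21 brought the adjusted p under 0.05, to between 0.0306 without N-15 and 0.0484 without R-12, in edgeR. Summed per mouse, the adjusted p of Zmat3 was 0.193 in edgeR, and without P497 it was 0.239. Over all alternatives it lay between 0.00122 with DESeq2 and 0.725 with the tumor number as a block. The log2 fold change was 0.98 without P497 and 1.12 without the squamous cell carcinomas.

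Aen (ENSMUSG00000030609.18, chromosome 7 from 78895854 to 78911209), a nuclease that takes part in apoptosis, ran from 9.50 to 35.1 CPM in controls with a median of 19.9. RhoC tumors ran from 16.8 to 51.8 CPM with a median of 32.2. Of the RhoC tumors, 10 lay above the control median, and the control N-15 was the only one above the RhoC median. Its log2 fold change was 0.66 (SE 0.24, edgeR adjusted p = 0.151).

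Bax (ENSMUSG00000003873.11, chromosome 7 from 45461697 to 45466898), which perforates the outer mitochondrial membrane, ran from 8.93 CPM in N-4 to 45.6 in N-15 in controls with a median of 23.3. RhoC tumors lay closer together, from 24.0 CPM in R-7 to 48.2 in R-10 with a median of 33.5. All 12 RhoC tumors were above the control median, and the same control, N-15, was the only one above the RhoC median. Between cohorts the log2 fold change was 0.50 (SE 0.22, edgeR adjusted p = 0.206). Gm45808, an annotated gene on the same strand, overlaps Bax, and reads that fell on both genes were not counted.

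Pmaip1 (ENSMUSG00000024521.8, chromosome 18 from 66458533 to 66465565) encodes Noxa, which frees cell death proteins from their inhibitors. Controls ran from 5.46 CPM in N-1 to 50.3 in N-15 with a median of 12.8, and RhoC tumors from 3.28 CPM in R-1 to 142 in R-6 with a median of 30.2. R-6, R-2, R-13 and R-14 were the highest at 142, 114, 106 and 66.9 CPM, whereas R-1 and R-21 were below every control. This gave a log2 fold change of 1.57 (SE 0.62, edgeR adjusted p = 0.171) and 0.87 without the squamous cell carcinomas.

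Phlda3 (ENSMUSG00000041801.5, chromosome 1 from 135766119 to 135769136), which competes with Akt for membrane lipids, ran from 6.68 CPM in N-3 to 134 in N-15 in controls with a median of 47.1. In RhoC tumors the level went from 21.4 CPM in R-18 to 291 in R-6 with a median of 96.8. The RhoC tumors R-6 and R-13 were above every control, and the controls N-3, N-4, N-7 and N-9 lay below every RhoC tumor. The log2 fold change was 1.07 (SE 0.49, edgeR adjusted p = 0.226) and 0.60 without the squamous cell carcinomas.

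Perp (ENSMUSG00000019851.8, chromosome 10 from 18845020 to 18857073), a membrane protein of desmosomes in stratified epithelium, ran from 69.6 to 1127 CPM in controls with a median of 187. The 12 RhoC tumors extended from 66.4 to 3042 CPM with a median of 254. The high tumors were R-13, R-6, R-14 and R-12 and, among controls, N-1. Its log2 fold change was 1.48 (SE 0.71, edgeR adjusted p = 0.242). Without the squamous cell carcinomas it was -0.08, so that the direction depended on these 3 tumors.

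Squamous keratinocyte markers were highest in the tumors with the most Sfn and Perp. The 12 markers summed to at most 1965 CPM in controls (median 77.3, highest in N-1) and to 4.77 to 8776 CPM in RhoC tumors (median 58.8). The 5 highest sums were 8776 CPM in R-6, 4773 in R-13, 2621 in R-14, 1965 in N-1 and 1337 in R-12, and these were also the 5 tumors with the highest Sfn and the highest Perp. Pmaip1 did not follow them throughout, with 5.46 CPM in N-1 and 30.5 CPM in R-12, and with 114 CPM in R-2, where the markers summed to 24.5 CPM. Of the 8 markers that passed the filter, 0 were higher and 1 was lower in RhoC tumors at an unadjusted p under 0.05. Basal epithelial markers summed to between 1051 and 21250 CPM in RhoC tumors and fibroblast markers to between 1694 and 16450 CPM, against 800 to 3729 and 391 to 8800 CPM in controls. The medians of these sums were 1886 and 4799 CPM in RhoC tumors, against 1568 and 5882 CPM in controls. Krt13 and Sprr1b were each at 0 in 12 of the 21 tumors and Sprr3 in 18. R-6 and R-7 came from the same mouse, and Sfn was at 980 CPM in the first and 7.93 CPM in the second, Cdkn1a at 331 and 85.4 CPM, and the squamous markers at 8776 and 53.4 CPM. The part of squamous cells in the results for Sfn, Perp, Pmaip1, Phlda3 and Rap2b was not tested beyond the fits without the squamous cell carcinomas.

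**Figure D3:**
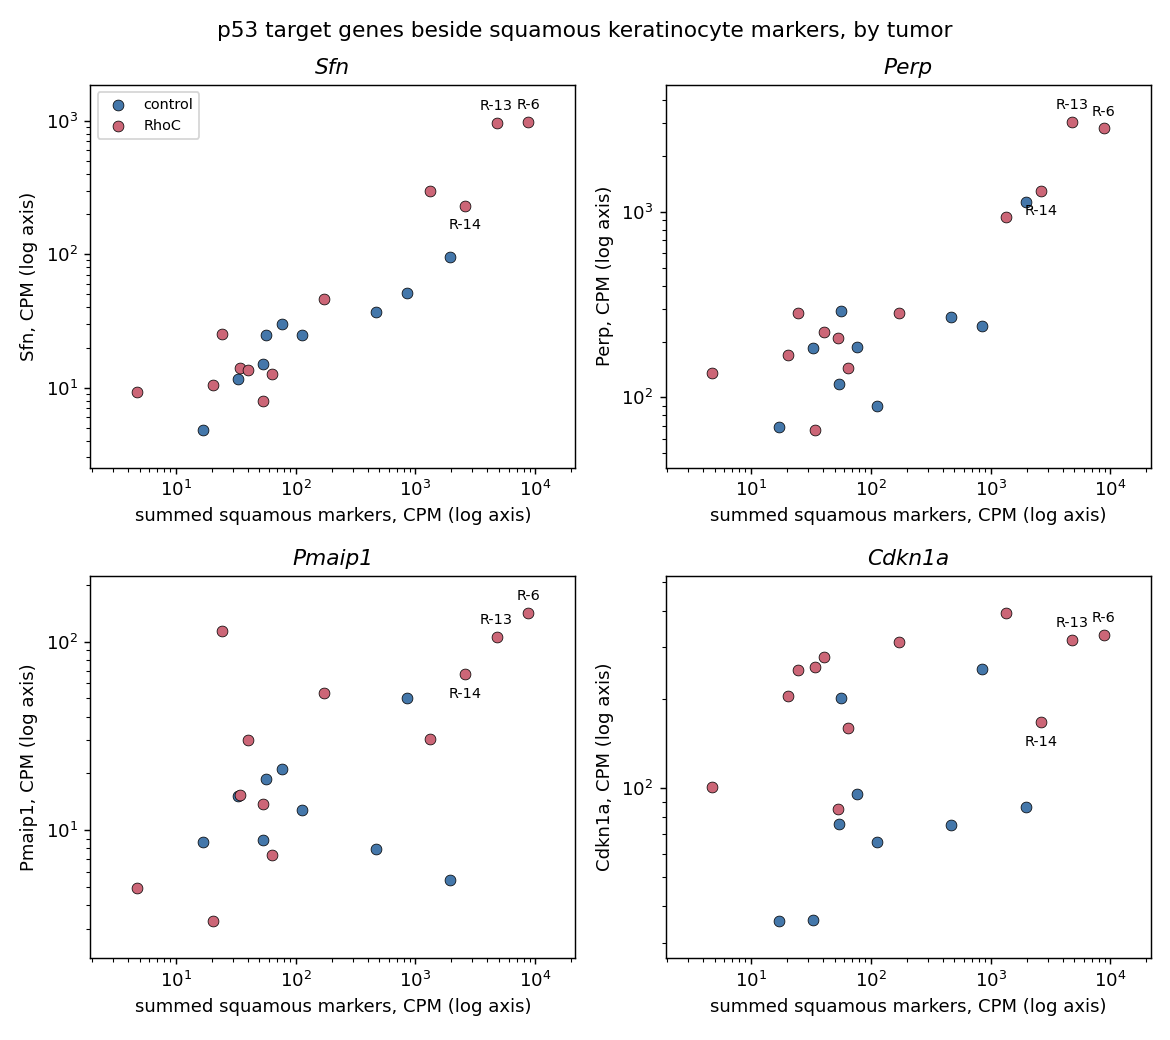
CPM of Sfn, Perp, Pmaip1 and Cdkn1a in each tumor (vertical, log axis) against the summed CPM of 12 squamous keratinocyte markers (horizontal, log axis), blue for 9 control and red for 12 RhoC tumors, with the squamous cell carcinomas named. Sfn and Perp are highest in the tumors with the highest marker sums in both cohorts, while Cdkn1a is spread over the whole range of marker sums.

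The remaining cell death genes were the receptors Fas, Tnfrsf10b and Eda2r, the mitochondrial trigger Bbc3 (Puma), the autophagy and death factor Trp53inp1 and Ei24, a membrane protein of the endoplasmic reticulum. Log2 fold changes ran from -0.03 for Ei24 to 0.77 for Eda2r, and the adjusted p-values from 0.305 to 0.920 in edgeR. Bbc3 was low in N-3 and N-4, at 0.695 and 0.840 CPM, where the next control held 4.17 CPM, and its log2 fold change was 0.54. Eda2r was at 1.71 CPM in R-21, while the next lowest of all tumors was the control N-1 at 5.61 CPM.

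DNA repair genes divided. Polk and Ercc5 had higher means with RhoC, both at an unadjusted p under 0.05, where 10.5% of all genes were higher. Rrm2b, Ddb2 and Xpc had lower means, and the median log2 fold change of the 5 was -0.20.

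Ercc5 (ENSMUSG00000026048.16, chromosome 1 from 44147847 to 44181260) encodes the endonuclease that cuts on the 3′ side of a lesion in nucleotide excision repair. It varied little, from 13.6 CPM in N-3 to 32.4 in N-4 in controls with a median of 23.9. RhoC tumors ran from 23.3 CPM in R-1 to 40.1 in R-10 with a median of 30.6. Apart from N-3 the tumors of each cohort lay close together, and 10 of 12 RhoC tumors lay above the control median. The log2 fold change of 0.41 (SE 0.14, unadjusted p = 0.00908, edgeR adjusted p = 0.132) was 0.38 without P497 and 0.42 without the squamous cell carcinomas.

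Polk (ENSMUSG00000021668.15, chromosome 13 from 96480690 to 96542485), a polymerase that copies past damaged bases, ran from 19.9 to 54.8 CPM in controls with a median of 28.6. In RhoC tumors the level went from 16.8 to 62.7 CPM with a median of 47.5. R-7 was the lowest of all tumors and the control N-4 was set apart from the other controls at the top of their range. Between cohorts the log2 fold change was 0.57 (SE 0.23, edgeR adjusted p = 0.173).

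Rrm2b, a ribonucleotide reductase subunit, Ddb2, which recognizes ultraviolet lesions, and Xpc, its partner in damage recognition, had log2 fold changes of -0.25, -0.32 and -0.20. Their adjusted p-values lay between 0.450 and 0.564 in edgeR. All 9 controls had more Ddb2 than the RhoC median of 7.51 CPM, yet the highest value of all, 19.9 CPM, was in the RhoC tumor R-21.

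Stress response genes were all 4 at higher means with RhoC, against 49.6% of all genes. Of the 4, 1 was higher at an unadjusted p under 0.05, against 10.5% of all genes. This was Sesn2 (ENSMUSG00000028893.8, chromosome 4 from 132492032 to 132510501), a sestrin that restrains growth signaling when nutrients or redox balance fail. It ran from 2.84 CPM in N-4 to 26.9 in N-15 in controls with a median of 14.5, and from 7.94 CPM in R-21 to 44.4 in R-6 in RhoC tumors, whose median was 24.5. Of the RhoC tumors only R-7 and R-21 fell below the control median. This gave a log2 fold change of 0.97 (SE 0.34, unadjusted p = 0.00999, edgeR adjusted p = 0.136), and 0.68 without the squamous cell carcinomas. Sesn1, its paralog, Dram1, a lysosomal autophagy protein, and the secreted stress cytokine Gdf15 had log2 fold changes of 0.11, 0.48 and 0.73. Dram1 was highest in R-2, and without this tumor its log2 fold change was 0.15. Gdf15 was the least abundant gene of the list, at 0.0401 to 5.63 CPM, and without its highest tumor R-10 the log2 fold change was 0.08.

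Membrane and signaling genes were all 3 at higher means in RhoC tumors, against 49.6% of all genes. Rap2b (ENSMUSG00000036894.3, chromosome 3 from 61361638 to 61368430), a small GTPase of the Ras family, ran from 26.9 to 69.6 CPM in controls with a median of 36.7 and from 27.6 to 164 CPM in RhoC tumors, whose median was 54.1. The highest tumors were R-6, R-13 and R-14, the squamous cell carcinomas, at 164, 155 and 102 CPM. Its log2 fold change was 0.78 (SE 0.31, edgeR adjusted p = 0.174) and 0.23 without them. The metastasis suppressor Cd82 and the phosphatase Ptpn14 had log2 fold changes of 0.34 and 0.40, with adjusted p-values of 0.333 and 0.632 in edgeR. Ptpn14 was highest in R-10 at 469 CPM, and without this tumor its log2 fold change was -0.044.

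Most of the 34 genes were highest in a RhoC tumor (28 genes) and lowest in a control (23 genes), with 12 of the 21 tumors being RhoC tumors. These counts were not taken over all genes. The control N-3 was lowest for 11 genes, and its median deviation from the mean of all tumors over the 34 genes was -0.97 on the log2 scale. N-15 was the only control with a positive median deviation, 0.20, and 8 of 12 RhoC tumors had a positive one. The highest medians were 0.62 in R-12, 0.60 in R-14 and 0.55 in R-13. R-21 and R-18 were at -0.47 and -0.33, at the level of the lower controls. The tumors of mouse P497 all lay above 0, at 0.55, 0.60, 0.47 and 0.23.

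**Figure D4:**
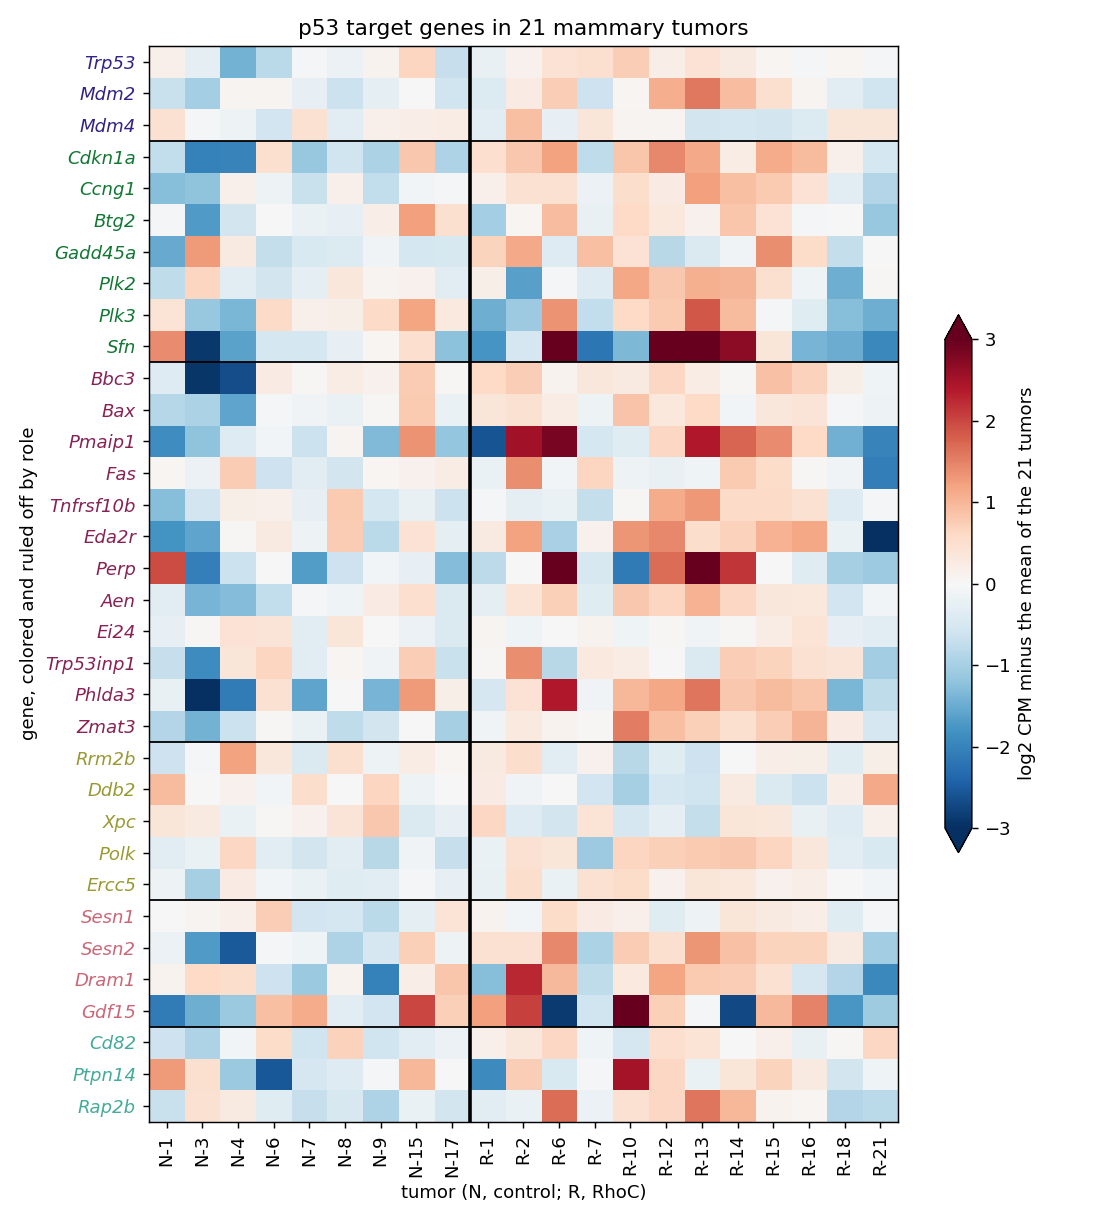
Log2 CPM of each of the 34 genes (rows, ruled off by role) in each tumor (columns, 9 control on the left and 12 RhoC on the right) minus the mean of the 21 tumors, with colors ending at 3 in each direction. N-3 is lowest for 11 genes, R-10 is highest for 7 and R-13 for 6.

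Levels between genes were compared as the authors' FPKM (fragments scaled by gene length and library size), by the median of all 21 tumors. Perp led at 114, followed by Ccng1 at 89.0, Ei24 at 56.0, Plk2 at 55.7, and Fas at 1.34 and Gdf15 at 0.264 came last. By the median of the 12 RhoC tumors alone, Cdkn1a at 70.5 and Phlda3 at 61.8 followed Perp and Ccng1. Over all 21 tumors Trp53 stood at 18.9 and Mdm2 at 23.7. The spread between tumors also differed by gene. Sfn differed 205-fold between its highest and lowest tumor in CPM, Cdkn1a 11.1-fold, Mdm2 6.05-fold and Ei24 1.83-fold.

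Whether the best known targets vary together among mice was asked with Mdm2 as the reference, on mean log2 CPM per mouse in 17 mice. Pearson's r with Mdm2 was 0.78 for Zmat3 (permutation p = 2.2e-04, adjusted over 6 relations 0.00132), 0.70 for Ccng1 (p = 0.00172, adjusted 0.00372), 0.69 for Cdkn1a (p = 0.00186, adjusted 0.00372), 0.66 for Eda2r (p = 0.00468, adjusted 0.00702) and 0.60 for Phlda3 (p = 0.0106, adjusted 0.0127), all two-sided permutation tests. Spearman's rho was 0.79, 0.66, 0.62, 0.70 and 0.51 in the same order, with adjusted permutation p-values of 0.00162, 0.00964, 0.0141, 0.00705 and 0.0449. These genes were higher together in the mice with more Mdm2. Trp53 RNA had an r of 0.21 with Mdm2 (permutation p = 0.427) and a rho of 0.34 (permutation p = 0.186), neither of which passed the threshold. All values come from the same libraries and share their normalization. Over the 17 mice r and rho also take in the difference between the cohorts.

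Without the 2 mice farthest from the median of Mdm2, N9934 and P497, r was 0.72 for Zmat3, 0.69 for Ccng1, 0.61 for Eda2r and 0.56 for Cdkn1a, with permutation p-values of 0.00192, 0.00536, 0.0142 and 0.0301. For Phlda3 it was 0.51 (permutation p = 0.0538), which did not pass the threshold. Within the 9 control mice r was 0.86 for Zmat3 (exact permutation p = 0.00326, adjusted 0.0195), and between 0.34 and 0.60 for the other targets, of which none passed the threshold. Within the 8 RhoC mice r was 0.86 for Cdkn1a (exact permutation p = 0.00521, adjusted 0.0313), and between 0.62 and 0.77 for the other targets, none of which had an adjusted p under 0.05. For Trp53 r was -0.21 in control mice and 0.33 in RhoC mice, with exact permutation p-values of 0.592 and 0.441.

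**Figure D5:**
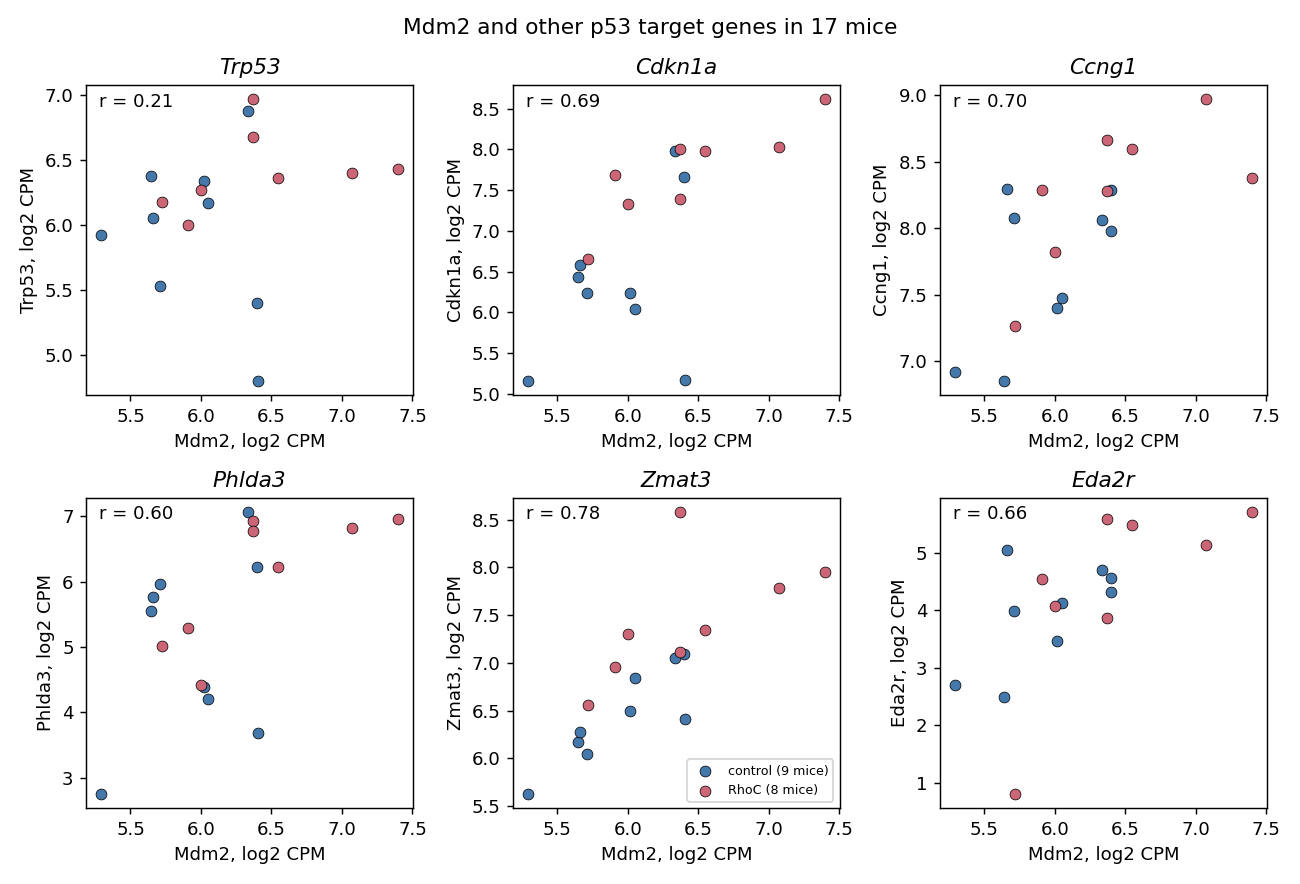
Mean log2 CPM per mouse of 6 genes (vertical) against that of Mdm2 (horizontal), blue for 9 control and red for 8 RhoC mice, with Pearson's r over the 17 mice in each panel. Zmat3, Ccng1, Cdkn1a, Eda2r and Phlda3 are higher where Mdm2 is higher, with r of 0.60 to 0.78, and Trp53 has an r of 0.21.

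Other genes of the pathway were taken from 3 written lists. Of 28 further p53 targets, 19 had higher means in RhoC tumors, 6 were higher at an unadjusted p under 0.05 and 0 were lower, and none reached an adjusted p under 0.05 in edgeR. For comparison, the shares among all genes tested were 49.6% with a higher mean, and 10.5% higher and 9.93% lower at an unadjusted p under 0.05. Dcxr, a carbonyl reductase, had a log2 fold change of 1.27 (SE 0.29, edgeR adjusted p = 0.0536) and was at 7.10 to 30.0 CPM in RhoC tumors and at 2.55 to 12.6 CPM in controls. Slc19a2, a thiamine transporter, had one of 1.09 (SE 0.25, edgeR adjusted p = 0.0579), and each of the 12 RhoC tumors exceeded the control median. With DESeq2, which called 6.24% of all genes, the adjusted p was 0.00162 for Dcxr and 0.00325 for Slc19a2. In edgeR fits without 1 tumor, which called 0.0719% to 1.77% of all genes, Dcxr passed in 3 and Slc19a2 in 2 of 21. With the tumor number as a block in edgeR both had an adjusted p of 0.706. Of 19 regulators of p53, 8 had higher means, 2 were higher and 2 lower at an unadjusted p under 0.05, the last counts being near the shares of all genes. The kinase Hipk2, which phosphorylates p53, had a log2 fold change of 0.54 and the damage kinase Atm one of -0.32, with adjusted p-values of 0.187 and 0.207 in edgeR. Of 14 genes of cell division, which p53 holds down through p21, 7 had higher means, 1 was higher and 0 were lower at an unadjusted p under 0.05, and the median log2 fold change was 0.00053. Top2a, the topoisomerase of dividing cells, was at 0.80 and E2f1, a driver of replication genes, at 0.36, with adjusted p-values of 0.187 and 0.396 in edgeR.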

How the data were processed

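The authors deposited raw read counts per gene for each tumor, made without pooling by FastQC 0.11.5, Trim Galore 0.5.0, STAR 2.6.0c and HTSeq 0.6.1p2 on GRCm38.p6, per the submitters' processing notes and the study's methods. The library kit was stranded, but whether counting used the strand is not given in the sources used here, and reads on several genes were discarded by the authors. Of the 34 genes, 15 overlap another annotated gene and can lose reads there, 11 of them one on the other strand (Mdm4, Cdkn1a, Polk and Rap2b among them), for which the loss depends on that setting. Deposited tables of the authors' comparisons hold FPKM, scaled by the authors, which was used for levels between genes. Their fold changes and p-values were not used.

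Counts were compared in R 4.3.3 with edgeR 4.0.16 (TMM, filterByExpr by cohort, quasi-likelihood test without covariates, Benjamini-Hochberg adjustment over 19315 genes, threshold 0.05). CPM is TMM-scaled, and log2 CPM uses a prior count of 2. SE is the log2 fold change divided by the square root of F. Reading a difference from tumors of 1 mouse as independent makes p-values too small, and limma 3.58.1 estimated a correlation of 0.27 within mice. Alternatives were DESeq2 1.42.0, library size in place of TMM, all genes with a count, counts summed per mouse, voom with mouse as a random effect, the 7 Gata4(loxP/+) controls alone, and fits without P497, without R-6, R-13 and R-14, without N-1 and without each tumor. Correlations used scipy with 100000 resamples, or exact permutation within a cohort. R-18 was counted as a mouse of its own. Steps were tested on simulated data.

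The 34 genes, the lists and the alternatives were chosen with earlier results of these data known. Genes were given in full if they were Trp53, Mdm2, Mdm4, Cdkn1a or Ccng1, had an unadjusted p under 0.05 or were among the 3 largest log2 fold changes, and each other list by its 2 smallest p-values. Other values singled out were chosen after they were seen.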

Additional observations from a re-analysis of the deposited data

Results flagged for a closer look

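Among the 34 genes, log2 CPM in the 9 control tumors was searched for a single tumor far from the rest, by Dixon's ratio of the gap to the range. Chance alone flags about 5% of groups, and 2 of the 34 were flagged. Polk was at 5.78 in N-4, against 5.05 in the next control N-15, with a ratio of 0.495. Ercc5 was at 3.77 in N-3, against 4.42 in the next control N-8, with a ratio of 0.517. Without N-4 the log2 fold change of Polk was 0.72, and without N-3 that of Ercc5 was 0.33. The 12 RhoC tumors were not searched in this way.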

How the results depend on the processing

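Of the 34 genes, 23 kept their direction in each of the 10 alternative fits and the 21 fits that left out 1 tumor, 12 of them among the 14 with an unadjusted p under 0.05, where Sfn and Perp were the exceptions. The number of genes with an adjusted p under 0.05 was 4 with DESeq2, 2 with the Gata4(loxP/+) controls alone (Cdkn1a and Zmat3), 0 to 2 when 1 tumor was left out, and 0 in the other fits. The share of all genes called when 1 tumor was left out ran from 0.0719% without N-9 to 1.77% without N-15, the fit with 2 of the 34. The number with an unadjusted p under 0.05 was 7 with counts summed per mouse, 4 without P497, 4 without the squamous cell carcinomas and 11 to 17 when 1 tumor was left out, where 17.5% to 23.2% of all genes passed. Directions reversed for Mdm4, Btg2 and Plk3 with counts summed per mouse (0.094, -0.056 and -0.31), without P497 (0.17, -0.0013 and -0.27) and without the squamous cell carcinomas (0.088, -0.10 and -0.59, with Perp at -0.080). Mdm4 was also at 0.0049 and Plk3 at -0.36 with voom, and Mdm4 at 0.0015 with the Gata4(loxP/+) controls and at 0.016 without N-1. When 1 tumor was left out, values ran from -0.15 to 0.016 for Mdm4, -0.019 to 0.35 for Btg2, -0.18 to 0.25 for Plk3, -0.077 to 0.026 for Ei24 and -0.044 to 0.64 for Ptpn14. The cause of these changes was not tested. No correlation with Mdm2 changed its side of the threshold with library size in place of TMM, with tumors in place of mice, without P497 or without the squamous cell carcinomas, whereas that of Phlda3 lost it without both N9934 and P497 (r = 0.51, permutation p = 0.0538).

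The cohorts share the tumor numbers 1, 6, 7 and 15, which come from different mice. Deviations of same-numbered tumors had correlations of -0.24, -0.19, -0.0029 and 0.022, and 0 of the 4 control tumors correlated best with its own number, so the numbers do not pair the samples. With the number as a replicate block, which leaves only these 4 pairs to inform the difference, 3 of the 34 genes and 3 of the 28 further targets had an unadjusted p under 0.05, against 7.06% of all genes. The block reversed Btg2 (-0.23), Plk3 (-0.83), Sfn (-0.52), Ei24 (0.20), Trp53inp1 (-0.036), Rrm2b (0.19), Xpc (0.18), Gdf15 (-1.09) and Ptpn14 (-0.14). The median log2 fold change of the 34 stayed between 0.26 and 0.55 in all fits. The lowest count of any of the 34 genes in a tumor was 2 reads, for Gdf15.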
